A study of Homo sapiens with 2 samples.

Results

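Prostaglandin synthesis and signalling were examined through 10 genes: the synthases PTGS1, PTGS2, PTGES and PTGES2, the degrading enzymes HPGD and PTGR1, and the receptors PTGFR, PTGER2, PTGER3 and PTGER4. They were chosen by gene symbol from the platform annotation, out of 19775 genes that had a probe set of their own, and 31 of the 54675 probe sets on the array carry these symbols. The resistant line was C4-2B-MDVR, a human prostate cancer line that withstands enzalutamide and was selected from C4-2B under long exposure to that antiandrogen. The other line was its parent C4-2B, an enzalutamide-sensitive line of the LNCaP lineage. Both grew in RPMI-1640 with 10% fetal bovine serum and antibiotics, with no drug before RNA isolation, and whether the resistant line is 1 clone or a pool is not given in the sources used here.

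The data are 1 Affymetrix expression array per line, so there is no spread between replicates, no SE and no p-value for any gene, and every difference below compares these 2 arrays. The free-text description of the resistant sample names another line, the docetaxel-resistant TaxR, while its title, source and cell line labels name C4-2B-MDVR. The description of the other sample calls C4-2B docetaxel-sensitive. The cell line labels were followed, and each direction holds for the array labelled C4-2B-MDVR against the array labelled C4-2B. Median intensity was 43.5 on the C4-2B-MDVR array and 41.9 on the C4-2B array. Of 9 luminal prostate markers all 9 were above the floor, an intensity at or above the array's own median on the brighter array. Of these, 2 were lower by at least 2-fold in C4-2B-MDVR, 0 were higher by as much and 7 were within 2-fold. The lower ones were the androgen-induced kallikreins KLK3, the gene of prostate-specific antigen, at 172 in C4-2B-MDVR and 8379 in C4-2B, and KLK2, at 295 in C4-2B-MDVR and 1263 in C4-2B. STEAP2 came next at a log2 difference of −0.90, and the luminal keratin KRT18 was at −0.10. By probe set, KLK3 differed by −5.61, −6.24 and −0.35. KLK2 differed by −2.10, −2.37 and −0.88 where its signal was above the floor. FOXA1, counted as within 2-fold at −0.08, also had a probe set at −1.18. The calls for KLK3, KLK2 and FOXA1 thus depend on which probe set is read. The leucocyte marker PTPRC was under the floor on both arrays in all of its probe sets. Fibroblast and blood or endothelial markers above the floor, 3 and 2 genes, were within 2-fold, though other probe sets of COL1A1 were at 1.07 and 1.20 on the log2 scale.

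Prostaglandins are lipid mediators made from arachidonic acid, which phospholipases free from membranes. Cyclooxygenases, encoded by PTGS1 and PTGS2, turn it into an unstable precursor that terminal synthases convert into prostaglandins E, F, D, prostacyclin or thromboxane. These leave the cell and act on G protein-coupled receptors, and they are inactivated by oxidation and reduction. In prostate tumours the pathway has been studied mostly through PTGS2 and the receptors for prostaglandin E.

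A single gene of the 10, the prostaglandin F receptor PTGFR, differed by 2-fold or more: its signal was far lower in C4-2B-MDVR than in C4-2B and lay under the floor there. The other 9 genes were within 2-fold in the probe set that stood for them, the one with the highest mean log2 intensity over both arrays. Above the floor were 6 of the 10 genes, with 1 lower by at least 2-fold and 0 higher by as much. Among all 13437 genes above the floor the share lower by at least 2-fold was 3.5% and the share higher was 3.17%. A count of 1 in 6 is too small to set the group apart from that background. The median log2 difference, C4-2B-MDVR minus C4-2B, was 0.10 over the 6 genes and 0.04 over all genes above the floor.

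**Figure D1:**
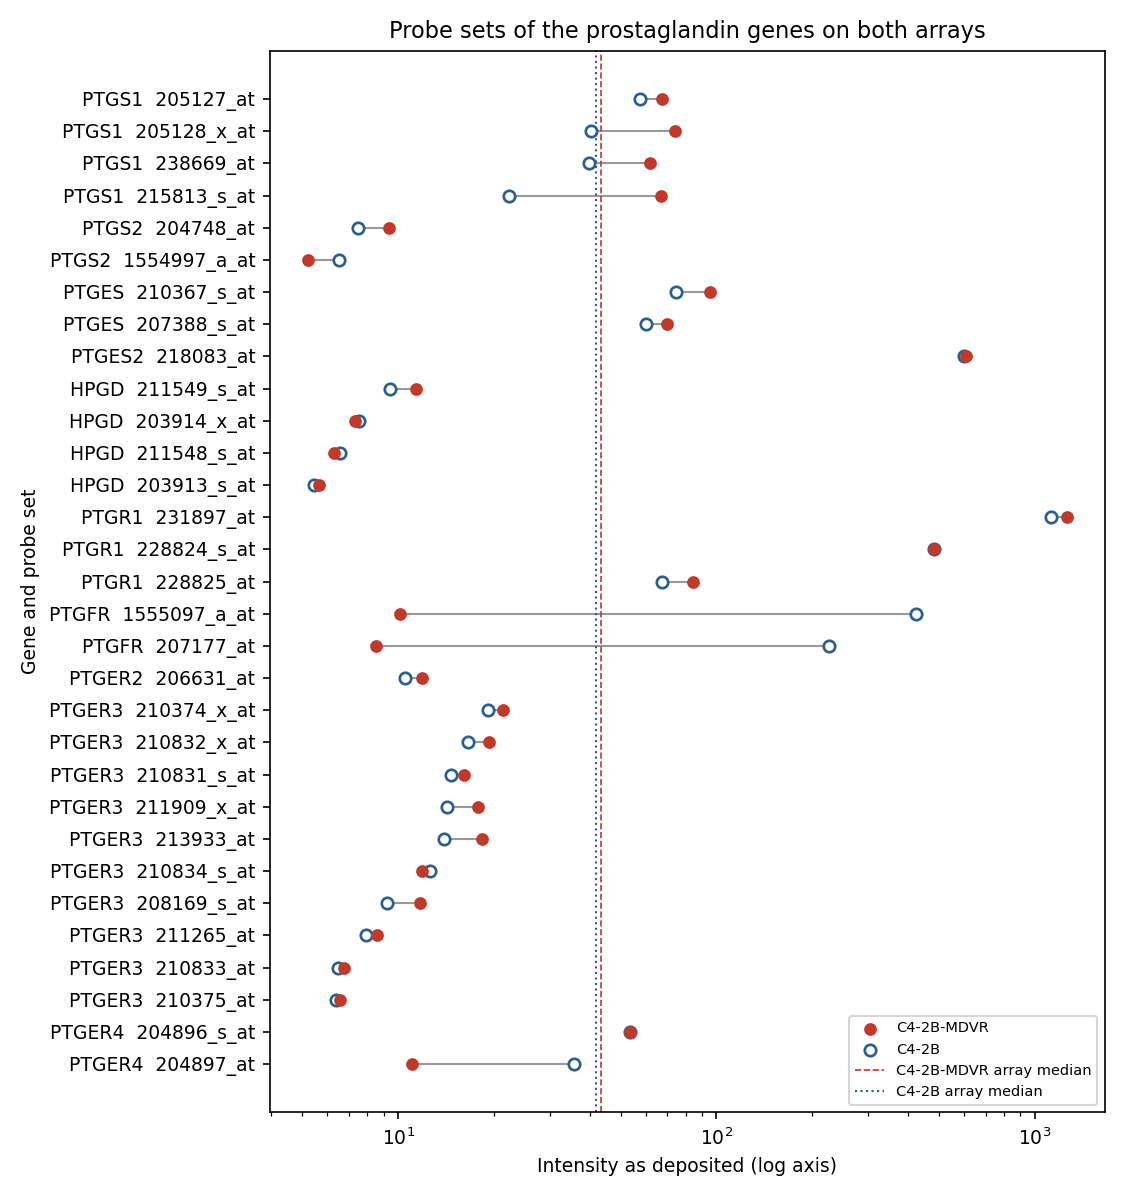
Intensity as deposited (log axis) of all 31 probe sets of the 10 genes, with C4-2B-MDVR as filled red points, C4-2B as open blue points and each array's median as a vertical line. Both PTGFR probe sets lie far above the median in C4-2B and far below it in C4-2B-MDVR, and 18 probe sets lie under the median on both arrays.

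PTGFR encodes the receptor for prostaglandin F, which couples mainly to Gq proteins and raises intracellular calcium. Its probe set of highest mean had an intensity of 10.1 in C4-2B-MDVR, against 422 in C4-2B. The log2 difference was −5.38. Since the C4-2B-MDVR value was under the floor of 43.5, the signal was at least 9.70-fold lower against that floor. The other PTGFR probe set gave 8.49 in C4-2B-MDVR and 225 in C4-2B, at least 5.17-fold lower by the same bound, with a log2 difference of −4.73. Both probe sets gave the same direction. Their C4-2B-MDVR values stood at percentiles 12.7 and 8.20 of all probe sets on that array, against percentiles 88.3 and 80.8 on the C4-2B array. By this bound 16 of the 13437 genes, PTGFR included, were lower by as much or more, which is 0.119% of them.

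**Figure D2:**
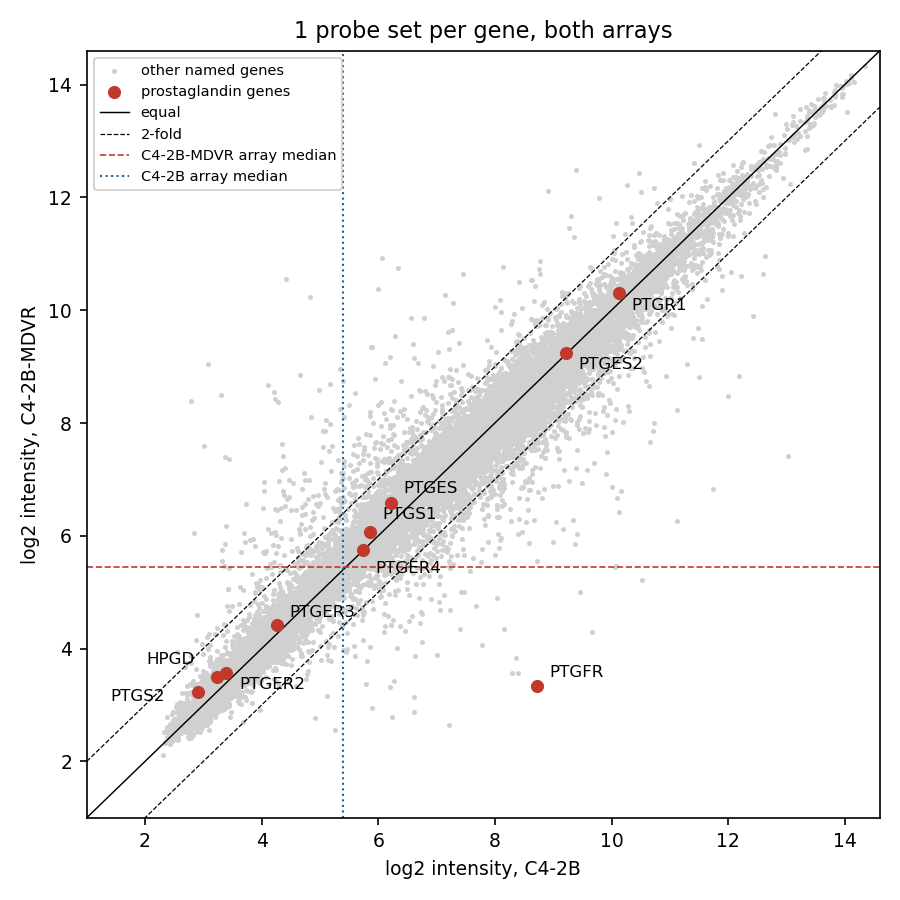
Log2 intensity of each named gene in C4-2B (x axis) and C4-2B-MDVR (y axis), 1 probe set per gene, with the 10 prostaglandin genes in red, the line of equal values and dashed lines at 2-fold. PTGFR alone among the 10 lies outside the dashed lines, and PTGS2, HPGD, PTGER2 and PTGER3 lie in the corner under both array medians.

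The receptors for prostaglandin E showed no difference of this kind. PTGER2, which couples to Gs and raises cyclic AMP, had an intensity of 11.9 in C4-2B-MDVR and 10.5 in C4-2B, under the floor on both arrays. PTGER3, which acts mainly through Gi, was under the floor in all 10 of its probe sets, which ranged from 6.58 to 21.3 in C4-2B-MDVR and from 6.36 to 19.1 in C4-2B. A difference in either gene could not be seen at such low signal. PTGER4, the other Gs-coupled receptor, had 53.6 in C4-2B-MDVR and 53.3 in C4-2B in the probe set above the floor, a log2 difference of 0.01. Its other probe set read 11.1 in C4-2B-MDVR and 35.8 in C4-2B, a log2 difference of −1.69 with both values under the floor. The PTGER4 probe sets thus disagreed, and the value for this gene depends on which one is read.

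The 250 bases before the annotated start of PTGFR are shown beside those of PTGER4, the other receptor of the 10 with signal above the floor, since PTGFR was lower in C4-2B-MDVR and PTGER4 was not in its probe set above the floor. The sequences are from RefSeq (GRCh38.p14), PTGFR at chr1:78490724-78490973 on the plus strand and PTGER4 at chr5:40679665-40679914 on the plus strand. Capitals mark GC boxes, the letters GGGCGG on either strand.
PTGFR: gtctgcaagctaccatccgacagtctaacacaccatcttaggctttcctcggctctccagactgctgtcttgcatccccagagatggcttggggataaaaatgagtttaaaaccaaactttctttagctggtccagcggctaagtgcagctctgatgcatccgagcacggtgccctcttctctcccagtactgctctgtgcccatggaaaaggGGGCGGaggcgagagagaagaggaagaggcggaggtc
PTGER4: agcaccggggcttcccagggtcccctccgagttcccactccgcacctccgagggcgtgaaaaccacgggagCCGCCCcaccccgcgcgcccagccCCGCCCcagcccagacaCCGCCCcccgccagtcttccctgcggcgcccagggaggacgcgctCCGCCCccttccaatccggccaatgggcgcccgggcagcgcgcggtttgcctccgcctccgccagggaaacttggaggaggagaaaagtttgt
The PTGFR window held 1 GC box, 8 CpG dinucleotides and 54% G or C, and the PTGER4 window held 4 GC boxes, 26 CpG dinucleotides and 72.8% G or C. The medians over all 35116 RefSeq windows of this length were 11 CpG dinucleotides and 58% G or C. GGGCGG, on either strand, was in 42.6% of all windows and in a window of 7 of the 9 genes of the 10 with an entry. AGAACA, a core of androgen receptor binding sites searched on either strand, was in 12.4% of all windows and in those of 0 of the 9 genes. TATAAA, on either strand, was in 10.7% of all windows and in a window of PTGS1 and PTGS2, and CCAAT, on either strand, in 32.0% of all windows and in those of PTGS2, HPGD and PTGER4. The cyclic AMP response element TGACGTCA, which is its own reverse complement, was in 1.65% of all windows and in 0 of the 9 genes. Genes were counted by a match in any of their windows, so these counts and the shares of all windows are unlike measures. None of these motifs is contained in another, and a match or its absence describes these windows only.

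Among the cyclooxygenases, PTGS1 was slightly higher in C4-2B-MDVR and PTGS2 could not be measured. PTGS1, the cyclooxygenase present in many tissues at rest, read 67.4 in C4-2B-MDVR and 57.7 in C4-2B in its probe set of highest mean, a log2 difference of 0.22. The other 3 PTGS1 probe sets read 74.2, 62.0 and 67.1 in C4-2B-MDVR, against 40.4, 39.8 and 22.4 in C4-2B. All 4 were higher in C4-2B-MDVR, by log2 differences of 0.22 to 1.59, but in C4-2B 3 of them lay under its floor. The largest of them (1.59) was at least 1.60-fold higher by its bound. Of 670 genes with 4 probe sets above the floor, 150 (22.4%) likewise had all 4 higher in C4-2B-MDVR. PTGS2, the inducible cyclooxygenase, read 9.35 in C4-2B-MDVR and 7.47 in C4-2B in 1 probe set and 5.20 in C4-2B-MDVR and 6.53 in C4-2B in the other. All of these values were under the floor and the probe sets had opposite signs.

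The synthases that make prostaglandin E differed little between the lines. PTGES, the inducible membrane-bound synthase, had intensities of 95.7 in C4-2B-MDVR and 74.6 in C4-2B, a log2 difference of 0.36. Its other probe set gave 69.8 in C4-2B-MDVR and 59.9 in C4-2B (0.22). PTGES2, another membrane-associated synthase, had 608 in C4-2B-MDVR and 597 in C4-2B (0.03). All of these values were above the floor on both arrays.

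Of the degrading enzymes PTGR1 was measured in both lines and HPGD in neither. HPGD oxidizes prostaglandins in the first step of their inactivation, and its 4 probe sets ranged from 5.63 to 11.4 in C4-2B-MDVR and from 5.46 to 9.43 in C4-2B, all under the floor. PTGR1 reduces the product of that step and also inactivates leukotriene B. It read 1260 in C4-2B-MDVR and 1123 in C4-2B, a log2 difference of 0.17, and its other probe sets differed by −0.01 and 0.33. HPGD lies on chromosome 4, and with no signal on either array it can add nothing to comparisons of that chromosome.

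Counted by probe set, 13 of the 31 were above the floor, 10 of them higher and 3 lower in C4-2B-MDVR. The 2 that were 2-fold or more lower were those of PTGFR, and the 1 that was 2-fold or more higher was the PTGS1 probe set at 1.59. The corresponding shares of all 28632 probe sets above the floor were 4.01% lower and 2.56% higher. Probe sets of 1 gene read the same RNA sample and are not replicates.

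The rest of the pathway was read from 7 lists of 81 genes, of which 75 had a probe set of their own and 56 were above the floor. Of these 56 genes 4 were higher by at least 2-fold in C4-2B-MDVR (7.14%), 4 were lower by as much (7.14%) and 48 were within 2-fold. Over all 13437 genes above the floor the shares were 3.17% higher and 3.5% lower, which also stand beside the counts of each list below. Counts this small do not set the pathway or any of its lists apart from that background. The median log2 difference over the 56 genes was 0.10. The higher genes were PLA2G2A, PLAAT3, AKR1C3 and ITPR1, and the lower genes were ABCC4, PRKACB, PLCB1 and PLCB4.

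**Figure D3:**
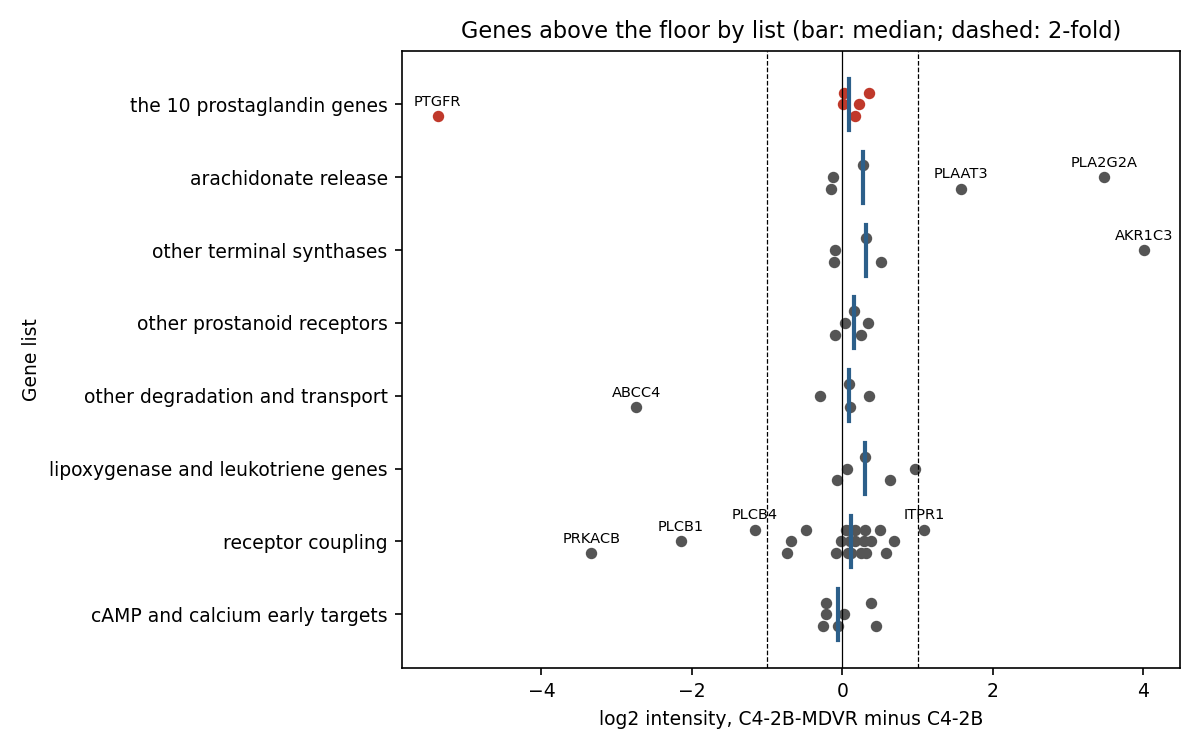
Log2 intensity in C4-2B-MDVR minus C4-2B for the genes above the floor, by list, with a blue bar at each list's median and dashed lines at 2-fold. Of the 10 prostaglandin genes the 6 above the floor are shown, in red. PTGFR is plotted at −5.38, AKR1C3 at 4.02, PLA2G2A at 3.48 and PRKACB at −3.34. PTGFR and AKR1C3 were under the floor on 1 array, and with that value set to the floor they are at −3.28 and 2.00.

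Of the genes that release arachidonic acid or its precursors, 5 of 10 had signal above the floor, with 2 higher by at least 2-fold and 0 lower. PLA2G2A, a secreted phospholipase A, had an intensity of 653 in C4-2B-MDVR and 58.6 in C4-2B, both above the floor, which is 11.1-fold higher. It has 1 probe set, so no other reading stands beside this value. PLAAT3, a phospholipase known from fat tissue, had 1053 in C4-2B-MDVR and 354 in C4-2B, a log2 difference of 1.57, but its other probe set differed by 0.19. The lipases and hydrolases MGLL (−0.13) and FAAH (−0.16), which break down endocannabinoids, and the calcium-independent phospholipase PLA2G6 (0.28) were close to 0. PLA2G4A, the cytosolic phospholipase that frees arachidonic acid in many cells, read 5.89 in C4-2B-MDVR and 8.56 in C4-2B, under the floor in both.

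Other terminal synthases differed in 1 of the 5 genes above the floor. AKR1C3, an aldo-keto reductase that makes prostaglandin F and also reduces steroids, read 168 in C4-2B-MDVR and 10.4 in C4-2B. The C4-2B value was under the floor, so AKR1C3 was at least 4.01-fold higher in its 1 probe set. Aldo-keto reductases of its family are close in sequence, and the array may not separate them fully. PTGES3, a co-chaperone also described as a cytosolic prostaglandin E synthase, had a log2 difference of −0.11, the carbonyl reductase CBR1 −0.09 and PRXL2B, a synthase of prostaglandin F, 0.52. HPGDS, PTGIS and TBXAS1, which make prostaglandin D, prostacyclin and thromboxane, were under the floor on both arrays. PTGDS, another prostaglandin D synthase, was above it on both, with 195 in C4-2B-MDVR and 157 in C4-2B (0.32). The synthase AKR1C3 and the receptor PTGFR, both of prostaglandin F, differed in opposite directions, but a link between them was not tested. PRXL2B, also a synthase of prostaglandin F, was within 2-fold.

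The remaining prostanoid receptors gave no difference of 2-fold or more. Log2 differences ranged from −0.10 to 0.34 over the 5 genes of this list above the floor. The highest was PTGFRN, listed here as a regulator and not a receptor, and TBXA2R followed at 0.25. PTGIR, the prostacyclin receptor, read 218 in C4-2B-MDVR and 197 in C4-2B, and PTGER1, the Gq-coupled receptor for prostaglandin E, 176 in C4-2B-MDVR and 172 in C4-2B. PTGFRN, named as a negative regulator of PTGFR, was above the floor on both arrays with 574 in C4-2B-MDVR and 454 in C4-2B (0.34). PTGDR, a receptor for prostaglandin D, was under the floor on both arrays. PTGDR2, another receptor for prostaglandin D, was above it on both, with 78.0 in C4-2B-MDVR and 83.5 in C4-2B (−0.10).

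Among other genes of degradation and transport, ABCC4, a membrane exporter that carries prostaglandins among other substrates and is induced by androgen, was lower. It read 255 in C4-2B-MDVR and 1706 in C4-2B, which is 6.68-fold lower, and its 3 probe sets above the floor differed by −2.74, −2.43 and −1.94. The other 4 genes of the list were within 2-fold, among them the reductases CBR3 (0.10), PTGR3 (0.35) and PTGR2 (−0.29). The PTGR3 probe sets disagreed in sign, with 2 higher and 3 lower of the 5 above the floor. In the lipoxygenase and leukotriene list 5 of 13 genes had signal above the floor and 0 differed by 2-fold. LTA4H, which makes leukotriene B, came nearest with 2079 in C4-2B-MDVR and 1060 in C4-2B (0.97), while ALOX15 (−0.07) and the leukotriene B receptor LTB4R (0.07) were close to 0.

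Genes that couple these receptors to calcium and cyclic AMP held 24 genes above the floor, with 1 higher and 3 lower by at least 2-fold. These proteins serve many receptors, not those for prostaglandins alone. PRKACB, a catalytic subunit of the cyclic AMP-dependent protein kinase, had an intensity of 459 in C4-2B-MDVR and 4636 in C4-2B. It was 10.1-fold lower, and its 3 probe sets agreed in direction at −3.34, −3.95 and −3.86. The other catalytic subunit in the list, PRKACA, read 194 in C4-2B-MDVR and 186 in C4-2B, and the regulatory subunit PRKAR1A had probe sets from −0.74 to 0.14.

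On the Gq side, 2 of the 4 phospholipases C of the beta class above the floor were lower by at least 2-fold. The share over all genes above the floor was 3.5%, and 4 genes are too few to compare with it. PLCB2 (0.11) and PLCB3 (0.08) were close to 0, as was GNAQ, the Gq alpha subunit (−0.08). Another GNAQ probe set was at −1.12, but its C4-2B-MDVR value was under the floor, so it was at least 1.10-fold lower. PLCB4 read 184 in C4-2B-MDVR and 411 in C4-2B (−1.16, with its other probe set at −0.92). PLCB1 read 19.9 in C4-2B-MDVR, under the floor, and 88.4 in C4-2B, at least 2.03-fold lower. Its other probe sets, under the floor on both arrays, differed by −0.06 and −0.04. GNA11, a Gq-class alpha subunit, was lower in all 6 of its probe sets by −0.99 to −0.49, within 2-fold. ITPR1, a calcium channel of the endoplasmic reticulum that opens in response to this pathway, was in the opposite direction with 118 in C4-2B-MDVR and 55.6 in C4-2B, and its 3 probe sets above the floor lay between 1.05 and 1.09. GNAS, the Gs alpha subunit, was higher in all 10 probe sets above the floor, with 11418 in C4-2B-MDVR and 7110 in C4-2B in the brightest (0.68), again within 2-fold. GNAI3, a Gi alpha subunit, was at 0.16.

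Early response genes that calcium or cyclic AMP can induce held 7 genes above the floor, all of them within 2-fold, with a median of −0.06. Examples were the phosphatase DUSP1 (−0.26), the AP-1 subunit JUNB (0.45) and the calcineurin regulator RCAN1 (0.02). FOS and EGR1 were under the floor on both arrays.

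Genes next to PTGFR on chromosome 1 were read from the 5 genes above the floor on either side of it in RefSeq order, passing over 11 named genes under the floor. On the higher-numbered side 4 of 5 were 2-fold or more lower, against 3.5% of all genes above the floor, and 1 of these was PRKACB. The adhesion receptor ADGRL2 read 10.8 in C4-2B-MDVR and 76.7 in C4-2B, at least 1.76-fold lower by its bound. That bound is within 2-fold, so ADGRL2 is in the count only by a value under the floor. SAMD13 read 41.6 in C4-2B-MDVR and 190 in C4-2B, at least 4.36-fold lower, and the nuclease DNASE2B 32.0 in C4-2B-MDVR and 171 in C4-2B, at least 3.93-fold lower. TTLL7 interrupted the run with 204 in C4-2B-MDVR and 134 in C4-2B (0.60), in the 1 of its 3 probe sets above the floor. On the lower-numbered side 1 of 5 was 2-fold or more lower, the chaperone DNAJB4 with 85.9 in C4-2B-MDVR and 178 in C4-2B (−1.05, with its other probe set at −0.37). The median of the 5 was 0.28. Copy number was not measured on these arrays.

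**Figure D4:**
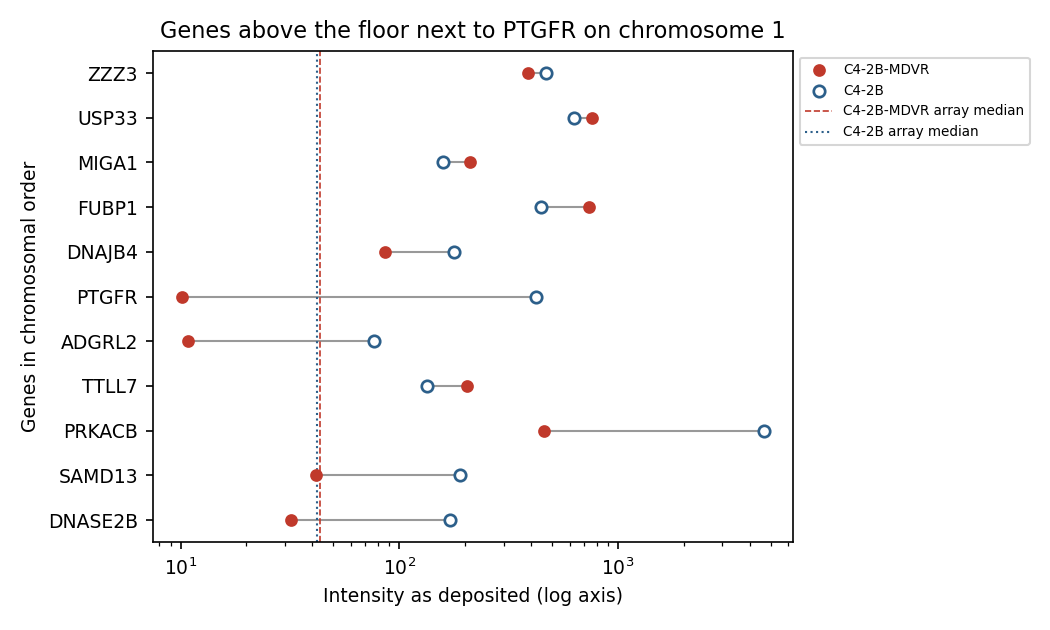
Intensity as deposited (log axis) of PTGFR and the 5 genes above the floor on either side of it on chromosome 1, in chromosomal order from top to bottom, with C4-2B-MDVR filled, C4-2B open and each array's median as a vertical line. ADGRL2, PRKACB, SAMD13 and DNASE2B are lower in C4-2B-MDVR, and TTLL7 between them is not.

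The protein-coding genes nearest to PTGFR in their values on the 2 arrays, by distance in log2 intensity, were TMEM47, CNKSR2 and PCDH7. TMEM47 read 11.9 in C4-2B-MDVR and 338 in C4-2B, CNKSR2 11.8 in C4-2B-MDVR and 313 in C4-2B, and PCDH7 14.3 in C4-2B-MDVR and 329 in C4-2B. Like PTGFR, all 3 had signal above the floor in C4-2B alone. Values under the floor have no order and different probe sets differ in brightness, so this says no more than that and ranks nothing.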

How the data were processed

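Total RNA of C4-2B-MDVR and C4-2B cells, 1 sample each, was extracted with Trizol, amplified, fragmented and labelled with biotin for Affymetrix arrays, per the labels' protocols. The authors deposited 1 intensity per probe set on a linear scale, as its range shows. How they were background-corrected, normalized and summarized is not given in the sources used here. The deposited intensities were only transformed to log2. The platform annotation of 2016 gave 1 symbol to 41097 probe sets, several to 1801 and none to 11777. Those with several symbols were not assigned to a gene. A gene was read from its probe set of highest mean log2 intensity. Its floor was the array median, since no detection calls were used here, and bounds set values under the floor to it. Genes were called by size alone, at 2-fold. Precision is limited by the number of arrays.

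The members and lists were chosen with earlier results of these data known. The text names all 10 members, pathway list genes beyond 2-fold, up to 3 more of each such list by level, and the 3 genes nearest to PTGFR. Others were named after their values were seen. PLAAT3 was listed under an older symbol. Alternatives were other scalings, probe set rules, floors and thresholds. Python 3.11.15, numpy 2.4.6, pandas 2.3.3, statsmodels 0.14.6 and matplotlib 3.10.9 were used.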

Additional observations from a re-analysis of the deposited data

How the results depend on the processing

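PTGFR was 2-fold or more lower in all settings. Its value changed under 5 alternatives, the 3 scalings, averaged probe sets and dim values set to the floor, to between −5.46 and −3.28, the smallest being with the floor. Other floors, and leaving out probe sets marked _s or _x, do not alter its value. It was also the 1 member counted as lower, with 0 higher, at 1.5-fold and 3-fold. Of the other members' values 1 passed 2-fold: PTGER4 at −1.69 without probe sets marked _s or _x, where both arrays are under the floor. PTGER4 was −0.84 and PTGS1 0.83 when all probe sets of a gene were averaged. The count of pathway genes 2-fold or more higher, 4 as reported, was 2 with averaged probe sets, which takes in those under the floor, 7 at 1.5-fold and 2 at 3-fold. Without probe sets marked _s or _x, which leaves out PLA2G2A, this higher count was 3. The lower count, also 4 as reported, ranged from 3 to 6 over the alternatives. Medians ranged from 0.03 to 0.17 for members and from 0.05 to 0.15 for pathway genes. Over all probe sets, scaling by median, quantiles or loess shifted the differences by a median of −0.05 to −0.03. With these scalings, in that order, the median of the members was 0.04, 0.14 and 0.10. That of the pathway genes was 0.05, 0.15 and 0.09. No paired analysis was possible because each line has 1 array. PTGS2, HPGD, PTGER2 and PTGER3 were too dim on both arrays to show a difference.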
